A study of Mus musculus with 2 samples.

Results

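The cells described here are *Smoc2* *Pou3f4* cells of the mouse pituitary at postnatal day 3. They are barcodes with at least 2 unique molecular identifiers (UMIs) of *Smoc2* and at least 1 of *Pou3f4*, with no *Shh* UMI, *Cga* under 2000 CPM (UMIs of the gene per 1000000 UMIs), at most 1 *Pou1f1* UMI and at most 2 UMIs of *Col1a1* and *Col3a1* together. Among barcodes with at least 1000 genes and a mitochondrial share of at most 10%, 345 of 8009 in the male library (4.31%, 95% interval 3.87 to 4.78) and 322 of 5604 in the female library (5.75%, 5.15 to 6.39) met these conditions, which makes 667 of 13613. The deposited files hold 10569 male and 5796 female barcodes. The members were chosen by measured UMIs, so the levels of the genes in the conditions are given as a description, and no test was run on any contrast.

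The study compared the SOX9iresGFP-positive fraction of male and female pituitaries, sorted by flow cytometry to hold stem cells and their immediate progeny. Both groups carried the genotype Sox9iresGFP/+, in which GFP is expressed from the *Sox9* locus, and 3 pituitaries were pooled into 1 library for each sex. GFP persists longer than SOX9, so the sort also takes cells that have lost SOX9. GEO's labels name the sorted cells stem cells. With 1 library per sex, sex cannot be told apart from animal, sort or library. Values are given for the male library first and the female library next, with intervals (lower bound, upper bound) at the 95% level that cover counting error only.

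In the postnatal pituitary, stem cells that express SOX2 and SOX9 line the cleft and lie within the anterior lobe, and give rise to hormone-producing endocrine cells. LEF1 is a transcription factor through which WNT signals act on their target genes, while NOTCH signalling, acting through HES1, keeps many progenitors from differentiating. FOXL2 and ISL1 are transcription factors of the gonadotroph lineage, whose mature cells secrete the gonadotrophins. The paper treats FOXL2 as marking commitment to thyrotrophs too, the cells that secrete thyroid-stimulating hormone.

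The *Smoc2* *Pou3f4* cells were set against 2 other sets of barcodes from the same libraries. The first, called *Cdkn1a* *Dll1* barcodes, had at least 1 UMI of both genes and none of *Smoc2*, with 246 male and 173 female barcodes. The second, called *Sox2* barcodes, had at least 1 *Sox2* UMI and no *Lef1* UMI, and left out the 53 male and 56 female members and the 161 and 123 *Cdkn1a* *Dll1* barcodes that also met this condition, with 4066 and 3663 barcodes left. Median depth was 14462 UMIs (male) and 13376 UMIs (female) for the members, 14746 and 10553 in the *Cdkn1a* *Dll1* barcodes, and 9996 and 9283 in the *Sox2* barcodes. Shares of barcodes with a UMI are therefore given after thinning each barcode to 5000 UMIs, with the unthinned share beside them. Collagen-rich barcodes had at least 20 UMIs of *Col1a1* and *Col3a1* together and no *Sox2* UMI. They numbered 458 male and 266 female, with median depths of 8644 and 8002 UMIs, and serve as cells that should lack pituitary epithelial genes. Their lack of *Sox2* is fixed by this choice. The libraries shared 19 barcodes, of which 1 was a male member. Scrublet placed 28 male (8.12%) and 22 female members (6.83%) among the most doublet-like barcodes, against 6.41% and 4.48% of all barcodes past the filter.

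Each step of the conditions removed barcodes. Of the barcodes with at least 1000 genes, 1445 male and 879 female ones had 2 or more *Smoc2* UMIs, and 513 and 416 of these had a *Pou3f4* UMI. The absence of *Shh* left 440 and 359, the *Cga* limit 372 and 331, the *Pou1f1* limit 352 and 325, and the collagen limit 345 and 322. Members had a median of 5 *Smoc2* UMIs in both libraries, up to 32 (male) and 17 (female), and a median of 3 *Pou3f4* UMIs.

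The promoters of 3 genes are shown as these genes are the markers on which the description turns. They are the 250 bases before the transcription start as RefSeq gives it, on GRCm38.p6 (mm10), written 5′ to 3′ on the strand of the gene with a CAGCTG in capitals. *Pou3f4* and *Foxl2*, a gene of the rule and a marker outside it, hold none, and *Col16a1* holds 1. The *Pou3f4* promoter is at chrX:110814129-110814378 on the plus strand, that of *Col16a1* at chr4:130047590-130047839 on the plus strand, and that of *Foxl2* at chr9:98955357-98955606 on the plus strand. RefSeq and the GENCODE annotation of the gene coordinates place the starts differently, so that the *Foxl2* window lies within that gene as GENCODE gives it and the end of the *Pou3f4* window overlaps its gene.
Pou3f4: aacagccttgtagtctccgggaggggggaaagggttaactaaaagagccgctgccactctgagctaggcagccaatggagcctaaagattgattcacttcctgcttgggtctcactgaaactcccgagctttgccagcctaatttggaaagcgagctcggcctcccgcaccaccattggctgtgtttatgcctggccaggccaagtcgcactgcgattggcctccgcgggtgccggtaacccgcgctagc
Col16a1: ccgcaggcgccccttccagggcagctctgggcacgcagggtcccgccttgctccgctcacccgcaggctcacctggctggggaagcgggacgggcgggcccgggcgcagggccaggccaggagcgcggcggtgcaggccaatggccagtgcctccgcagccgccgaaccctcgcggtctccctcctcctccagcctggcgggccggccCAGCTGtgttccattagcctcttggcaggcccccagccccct
Foxl2: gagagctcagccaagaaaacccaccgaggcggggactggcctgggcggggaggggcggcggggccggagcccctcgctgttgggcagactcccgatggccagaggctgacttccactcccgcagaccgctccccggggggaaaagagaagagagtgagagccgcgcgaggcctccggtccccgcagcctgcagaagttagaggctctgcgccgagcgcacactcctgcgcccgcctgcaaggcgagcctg

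The cells are described by 5 markers, of which *Smoc2* and *Pou3f4* are in the conditions. *Smoc2*, which encodes a secreted calcium-binding matrix protein, was at 413 CPM (396, 430.3) for male and 391 CPM (373, 409.5) for female members. *Pou3f4*, a POU-domain transcription factor, was at 249.8 CPM (237, 263) and 302 CPM (286, 318). The remaining markers *Col16a1*, *Lef1* and *Foxl2* are not in the conditions of the members. They were listed with earlier results of these data known, so their levels are a description and no independent check.

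*Col16a1* (ENSMUSG00000040690, chr4:130047840-130099283 on the plus strand of mm10), which encodes a fibril-associated collagen, was at 332 CPM (317, 348) for male and 337 CPM (320.2, 354) for female members. The levels were 24.2 and 51.8 CPM in the *Cdkn1a* *Dll1* barcodes and 19.7 and 16 CPM in the *Sox2* barcodes. The ratio of members to *Sox2* barcodes, with 5 CPM added to both levels, was 13.7 (male) and 16.3 (female), and that to *Cdkn1a* *Dll1* barcodes 11.6 and 6.02. A *Col16a1* UMI was found in 58.2% of the thinned male and 60.4% of the thinned female members (unthinned, 78.8% and 82.0%), against 29.1% and 25.5% of the collagen-rich barcodes, so *Col16a1* is shared with mesenchymal cells. Mesenchymal markers, summed over 11 genes that include *Col1a1* and *Col3a1* of the conditions, were at 10.1 and 6.93 CPM in the members, with 3 and 2 of the genes at 0, against 302 and 164 CPM in the *Cdkn1a* *Dll1* and 184 and 104 CPM in the *Sox2* barcodes. Those 2 sets had no collagen limit, so this contrast is partly fixed by the choice of barcodes. Summed levels in the members were 10.1 and 6.71 CPM over 8 endothelial genes, 0.552 and 1.30 CPM over 10 blood and immune genes, and 13.4 and 12.8 CPM over 7 pituicyte genes. Their part in the results was not tested.

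*Lef1* (ENSMUSG00000027985, chr3:131110471-131224356, plus strand) was at 153 CPM in the members of both libraries, against 31.2 and 41.1 CPM in the *Cdkn1a* *Dll1* barcodes. The *Sox2* barcodes lack it by their own condition. A *Lef1* UMI was found in 54.1% (48.7, 59.5) of the thinned male and 53.6% (48.0, 59.1) of the thinned female members (unthinned, 82.9% and 81.1%), against 1.62% and 0.797% of the collagen-rich barcodes.

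*Foxl2* (ENSMUSG00000050397, chr9:98955288-98958543, plus strand), which encodes a forkhead transcription factor of the gonadotroph and thyrotroph lineages, was at 86.7 CPM (79.0, 94.9) for male and 72.8 CPM (65.2, 81.0) for female members. It was at 8.47 and 3.29 CPM in the *Cdkn1a* *Dll1* barcodes and at 17.3 and 5.21 CPM in the *Sox2* barcodes. A *Foxl2* UMI was found in 30.9% (26.0, 36.1) and 27.1% (22.3, 32.3) of the thinned members (unthinned, 59.4% and 48.8%), against 2.08% and 2.79% of the collagen-rich barcodes. Most members thus had no *Foxl2* UMI at 5000 UMIs. *Lef1* UMIs were found in a larger share of the same members. All 3 markers that the conditions did not use were higher in the members than in both comparison sets, except that *Lef1* is fixed in the *Sox2* barcodes.

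**Figure D1:**
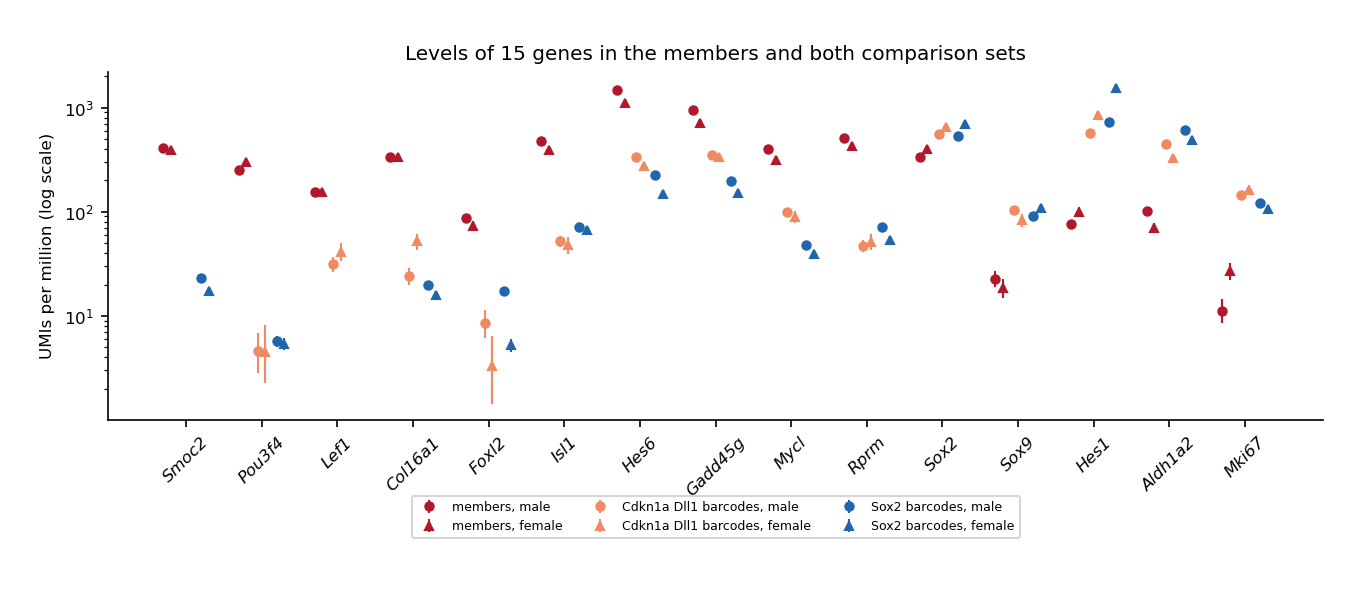
Levels of 15 genes as CPM (log axis) in the *Smoc2* *Pou3f4* cells (members, red), *Cdkn1a* *Dll1* barcodes (orange) and *Sox2* barcodes (blue), with circles for the male and triangles for the female library; bars are exact Poisson 95% intervals. Levels of 0 are not drawn, and *Smoc2*, *Pou3f4*, *Sox2* and *Lef1* are in the conditions of 1 or more sets. *Col16a1* was at 332 and 337 CPM in the members and *Hes1* at 75.5 and 100.3 CPM, below both other sets.

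To see which genes set these cells apart, levels were compared in each library, and a gene was counted when its ratio was at least 2, or at most 0.5, in both libraries, among genes with at least 50 CPM in 1 of the 2 sets in each library. This is a rule of size and not a test. Of 3227 genes compared with the *Cdkn1a* *Dll1* barcodes, 91 (2.82%) were at least 2-fold higher in the members and 211 (6.54%) at least 2-fold lower. Of 3263 genes compared with the *Sox2* barcodes, 126 (3.86%) were higher and 271 (8.31%) lower. These counts include the genes of the conditions. The median log2 ratio over all genes compared was 0.03 and 0.04 against the *Cdkn1a* *Dll1* barcodes, and 0.05 and 0.06 against the *Sox2* barcodes, in the male and female libraries.

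Among the genes with the highest ratio to both sets were *Mybpc1*, *Rprm*, *Nbeal1*, *Grp*, *Thsd7b*, *Rbm24* and *Col16a1*. *Rprm*, which encodes Reprimo, a membrane protein of the cell cycle arrest after p53 activation, was at 512 CPM for male and 424 CPM for female members. It was at 46.7 and 51.4 CPM in the *Cdkn1a* *Dll1* barcodes and at 70.8 and 54.0 CPM in the *Sox2* barcodes. A UMI was found in 81.8% and 75.4% of the thinned members (unthinned, 93.6% and 89.4%). *Mybpc1*, a myosin-binding protein of muscle, was at 74.9 and 65.4 CPM, and *Grp*, the gastrin-releasing peptide, at 89.3 and 83.4 CPM. *Thsd7b*, *Stk32a*, *Stk33*, *Pex5l*, *Pdzrn4*, *Slc7a5*, a large neutral amino acid transporter, *Slco3a1* and *Bik*, a BH3-only protein of apoptosis, completed the leading genes, with ratios to the *Sox2* barcodes of 4.68 to 11.9 across the 2 libraries.

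**Figure D2:**
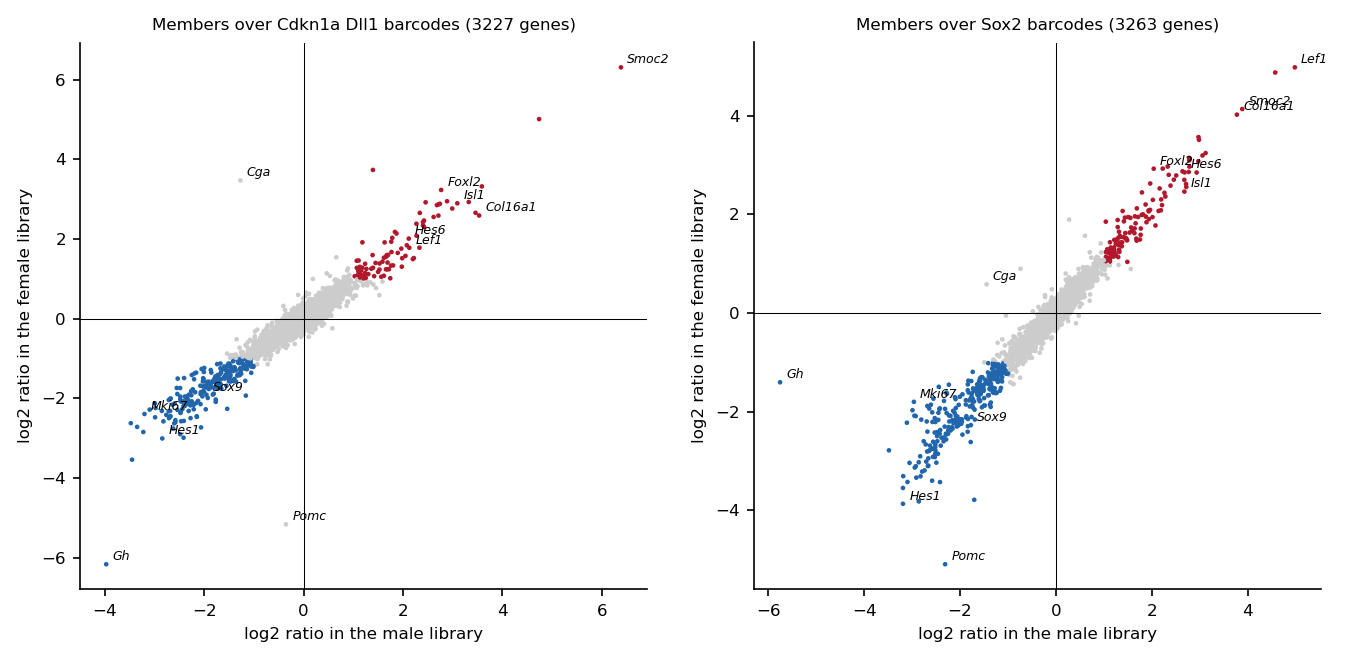
Log2 ratio of the *Smoc2* *Pou3f4* cells (members) to *Cdkn1a* *Dll1* barcodes (left, 3227 genes) and to *Sox2* barcodes (right, 3263 genes) in the male (x axis) against the female library (y axis); red and blue points are at least 2-fold higher and lower in both libraries. *Cga* and *Gh* lie away from the diagonal in both panels.

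*Foxl2* and *Isl1*, transcription factors of the gonadotroph lineage, were higher in the members than in each comparison set. *Foxl2* alone does not tell gonadotrophs from thyrotrophs. *Isl1* (ENSMUSG00000042258, chr13:116298281-116309689, minus strand), a LIM-homeodomain factor, was at 479.9 CPM (462, 499) and 387 CPM (369, 405) in the members, against 51.9 and 47.7 CPM in the *Cdkn1a* *Dll1* barcodes and 70.7 and 66.1 CPM in the *Sox2* barcodes. Of the 14 genes of the gonadotroph list, 5 were above the level limit and 3 of these, *Foxl2*, *Isl1* and *Cartpt*, were higher than in each comparison set. *Cartpt*, which encodes a neuropeptide precursor, was at 121 and 106 CPM in the members against 15.3 and 10.1 CPM in the *Sox2* barcodes. *Egr1*, an immediate early factor, was within 2-fold of both sets, at 966 and 1139.8 CPM in the members. The list's 9 other genes were under the level limit. Among these, *Foxp2*, which the paper calls an adult gonadotroph marker, was found in a smaller share of the members. Its thinned shares were 5.29% and 2.80% in the members (unthinned, 15.9% and 11.8%). They were 9.91% and 11.2% in the *Cdkn1a* *Dll1* and 10.2% and 11.7% in the *Sox2* barcodes. *Scgn* went the other way, with unthinned shares of 14.2% and 15.2% in the members. Those were 4.47% and 0.578% in the *Cdkn1a* *Dll1* and 5.66% and 1.72% in the *Sox2* barcodes. *Gata2*, a zinc-finger factor of gonadotrophs and thyrotrophs, had no UMI in the members of either library, which allows up to 0.552 CPM (male) and 0.650 CPM (female). *Nr5a1* was at 3.13 and 1.95 CPM, *Gnrhr*, the receptor of the gonadotrophin-releasing hormone, at 0.368 and 0.433 CPM, *Lhb* at 0.368 and 0.433 CPM and *Fshb* at 0.368 and 0.650 CPM. *Cga*, the common subunit of the glycoprotein hormones, is limited by the conditions and was at 223 and 173 CPM.

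Of 15 neuroendocrine factors, 6 were above the level limit. *Insm1*, a zinc-finger factor of endocrine differentiation, was at 236 and 221 CPM and above the *Sox2* barcodes with ratios of 3.20 and 2.85, as was *Sox11*, a SOX-C factor, at 435 and 416 CPM against 197 and 176 CPM. *Rest*, a repressor of neuronal genes, was the one gene of the list that was lower, at 9.02 and 15.2 CPM against 71.7 and 77.0 CPM in the *Sox2* barcodes. *Neurod1*, a bHLH factor of endocrine cells, was at 74.9 and 94.2 CPM and reached the 2-fold limit only against the *Cdkn1a* *Dll1* barcodes, where the ratio was 2.63 (male) and 13.3 (female). Its UMIs lay in few members, 10.3% of the thinned male and 9.03% of the thinned female ones (unthinned, 15.4% and 13.0%). The *Sox2* barcodes had no *Cga* limit and held 304 male and 30 female barcodes with at least 2000 CPM of *Cga*. Their part in the *Neurod1* contrast was not tested. Without barcodes that had at least 2000 CPM of *Pomc*, *Gh* or *Prl*, *Neurod1* was at 76.0 and 96.5 CPM in the members. It was then at 64.6 and 21.2 CPM in the *Sox2* barcodes.

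Genes of the early differentiation list were mostly higher than in the *Sox2* barcodes. Of the 7 compared, 6 were higher, namely *Dll1*, *Gadd45g*, *Hes6*, *Scx*, *Mycl* and *Myb*. Against the *Cdkn1a* *Dll1* barcodes, *Gadd45g*, *Hes6* and *Mycl* were higher of the 8 compared, and *Cdkn1a*, a condition of that set, lower. *Hes6*, a bHLH factor that opposes HES1, was at 1459.7 and 1111 CPM in the members against 333 and 272 CPM in the *Cdkn1a* *Dll1* barcodes and 223 and 149 CPM in the *Sox2* barcodes. *Mycl*, a MYC family factor, was at 403 and 312 CPM, with ratios of 3.90 and 3.38 to the former and 7.64 and 7.21 to the latter. *Gadd45g*, a growth arrest gene, was at 942 and 708 CPM against 349 and 335 CPM in the *Cdkn1a* *Dll1* barcodes. *Dll1*, a NOTCH ligand, is in the conditions of that set, and was at 107 and 108 CPM in the members against 19.6 and 21.5 CPM in the *Sox2* barcodes. The *Cdkn1a* *Dll1* barcodes were left out of the *Sox2* barcodes, so this difference is partly fixed by the choice of barcodes.

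Most stem cell genes above the level limit were lower in the members. Of 10 compared with the *Cdkn1a* *Dll1* barcodes, 7 were at least 2-fold lower and none higher, with a median log2 ratio of -1.86 (male) and -1.58 (female). Of 11 compared with the *Sox2* barcodes, 8 were lower, with medians of -1.80 and -2.10. *Sox9*, a stem cell factor and the locus of the GFP allele, was at 22.8 CPM (19.0, 27.2) and 18.4 CPM (14.7, 22.8) against 103 and 83 CPM and 90.2 and 108 CPM in the 2 sets. *Aldh1a2*, a retinaldehyde dehydrogenase, was at 101 and 69.7 CPM against 443 and 326 CPM in the *Cdkn1a* *Dll1* barcodes. *Ednrb*, the endothelin receptor type B, was at 7.18 and 14.3 CPM. The eGFP transcript was at 4.79 and 3.25 CPM in the members, against 20.5 and 11.9 CPM and 20.4 and 15.3 CPM, and a UMI was found in 2.65% and 1.25% of the thinned members (unthinned, 6.67% and 4.35%). *Sox2*, a stem cell factor, stood at 336 and 397 CPM and was found in 71.8% and 79.8% of the thinned members (unthinned, 94.5% and 93.2%). It is a condition of the second set.

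NOTCH pathway genes differed in direction. *Hes1*, a target of NOTCH, was at 75.5 CPM (68.3, 83.1) and 100.3 CPM (91.3, 109.8) in the members, 573 and 842 CPM in the *Cdkn1a* *Dll1* barcodes, and 729 and 1534 CPM in the *Sox2* barcodes. It came first among the lower genes against the latter when genes were ordered by the smaller of the ratios of the 2 libraries. Its share was 8.53% and 10.6% of the thinned members (unthinned, 16.2% and 14.9%), below the 45.7% and 53.8% of the collagen-rich barcodes. *Notch2*, a receptor, was at 24.3 CPM in both libraries and *Hey1*, a target, at 26.7 and 25.8 CPM, each more than 3-fold below both sets. Of the ligands, *Dll3* was at 49.5 and 43.3 CPM in the members, under the limit of 50 CPM, against 8.47 and 10.3 CPM in the *Cdkn1a* *Dll1* barcodes.

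**Figure D3:**
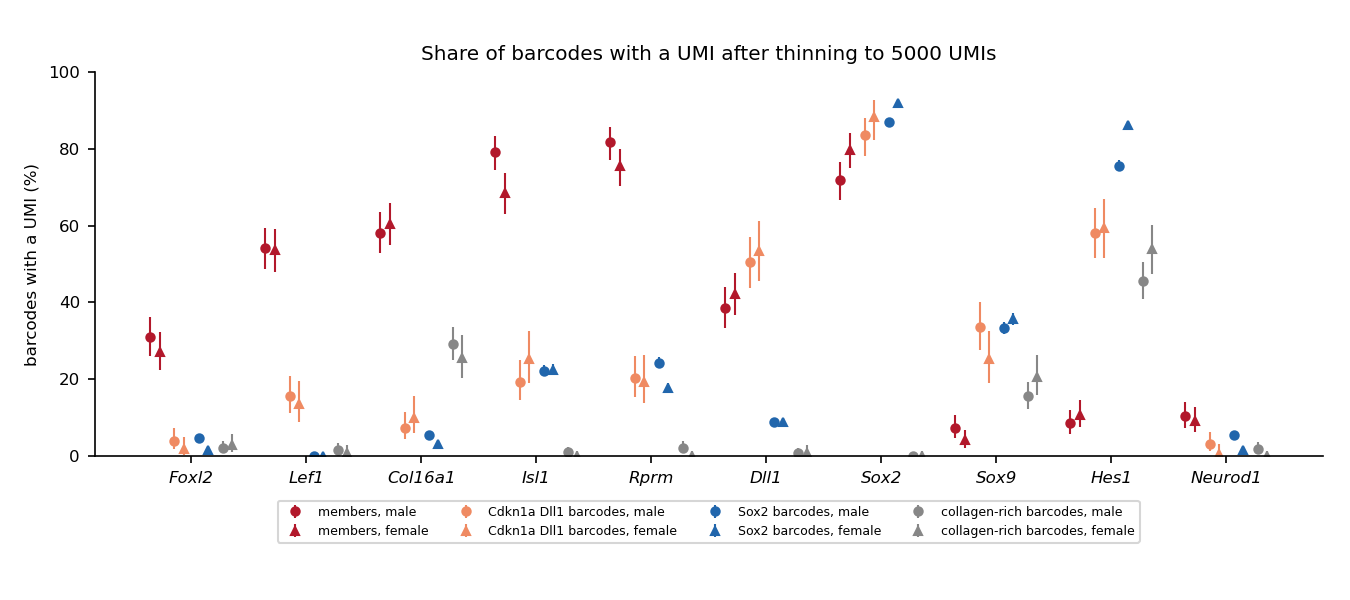
Share of barcodes with a UMI of 10 genes after thinning to 5000 UMIs, in the *Smoc2* *Pou3f4* cells (members, red), *Cdkn1a* *Dll1* barcodes (orange), *Sox2* barcodes (blue) and collagen-rich barcodes (grey), for the male (circles) and female library (triangles); bars are exact Clopper-Pearson 95% intervals. *Isl1* was found in 79.1% and 68.5% and *Foxl2* in 30.9% and 27.1% of the members. *Lef1*, *Dll1* and *Sox2* are in the conditions of a comparison set, and the collagen-rich barcodes lack *Sox2* by their own condition.

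Barcodes marked as proliferating by *Mki67*, *Top2a*, *Ccnb1*, *Ccnb2*, *Cdk1*, *Aurkb*, *Birc5* and *Cdc20* were fewer among the members. Barcodes with UMIs of at least 2 of 8 proliferation markers made up 2.06% (0.832, 4.20) of the thinned male and 2.49% (1.08, 4.85) of the thinned female members (unthinned, 3.48% and 3.73%), against 23.7% and 14.7% of the *Cdkn1a* *Dll1* and 20.1% and 14.2% of the *Sox2* barcodes (unthinned, 30.1% and 18.5%, and 26% and 17.0%). *Mki67*, a marker of cycling cells, was at 11.2 and 26.9 CPM in the members, 144 and 162 CPM in the *Cdkn1a* *Dll1* barcodes, and 122 and 106 CPM in the *Sox2* barcodes. Of 9 genes of the proliferation list compared, 5 were lower than in the *Cdkn1a* *Dll1* and 6 than in the *Sox2* barcodes. *Mcm2*, a gene of that list outside the 8 markers and under the level limit, went the other way. It was found in 22.1% and 18.4% of the thinned members (unthinned, 50.1% and 37.3%). The thinned shares were 11.2% and 8.24% in the *Cdkn1a* *Dll1* and 11.8% and 9.37% in the *Sox2* barcodes. *Pclaf* and *Hist1h3c*, genes of DNA replication and of S-phase histones, were among the 8 leading lower genes against the *Cdkn1a* *Dll1* barcodes. Proliferating barcodes were then left out of both comparison sets, while the 12 male and 12 female proliferating members stayed in. The log2 ratios to the *Cdkn1a* *Dll1* barcodes in the male and female libraries were then 0.48 and 1.50 for *Pclaf* and 0.07 and 1.02 for *Hist1h3c*. As only 1 side was trimmed, this change is partly fixed by the choice of barcodes, and its cause was not tested. Of growth arrest genes, *Cdkn1c*, the CDK inhibitor p57, was at 1065 and 1034 CPM and did not reach the limit, with ratios of 2.02 and 1.96 to the *Sox2* barcodes.

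WNT and retinoic acid genes were described from lists. Of 5 WNT pathway genes compared, *Lef1* and *Nkd1*, an inhibitor that WNT signals induce, were higher than in each comparison set, and *Nkd1* was at 98.8 and 93.3 CPM against 44.5 and 35.1 CPM in the *Sox2* barcodes. The *Sox2* barcodes lack *Lef1* by their condition, so its difference from them is fixed by the choice of barcodes. *Axin2*, which WNT signals also induce, was at 39.2 and 40.3 CPM, below the limit. Of 3 retinoic acid genes compared, 2 were lower than in each set, among them *Aldh1a2*. Of 6 FGF, BMP and activin genes, 5 were lower than in the *Cdkn1a* *Dll1* and 4 than in the *Sox2* barcodes, among them *Id1* and *Id3*, targets of BMP signals, and *Spry1*, a feedback inhibitor of FGF signals. *Bmp4*, a BMP ligand under the level limit in the male library, was at 44.7 and 53.1 CPM against 10.7 and 8.22 CPM in the *Cdkn1a* *Dll1* barcodes. Among homeodomain factors, *Lhx3*, *Six3*, *Six6* and *Pitx1* stayed within 2-fold of both sets.

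**Figure D4:**
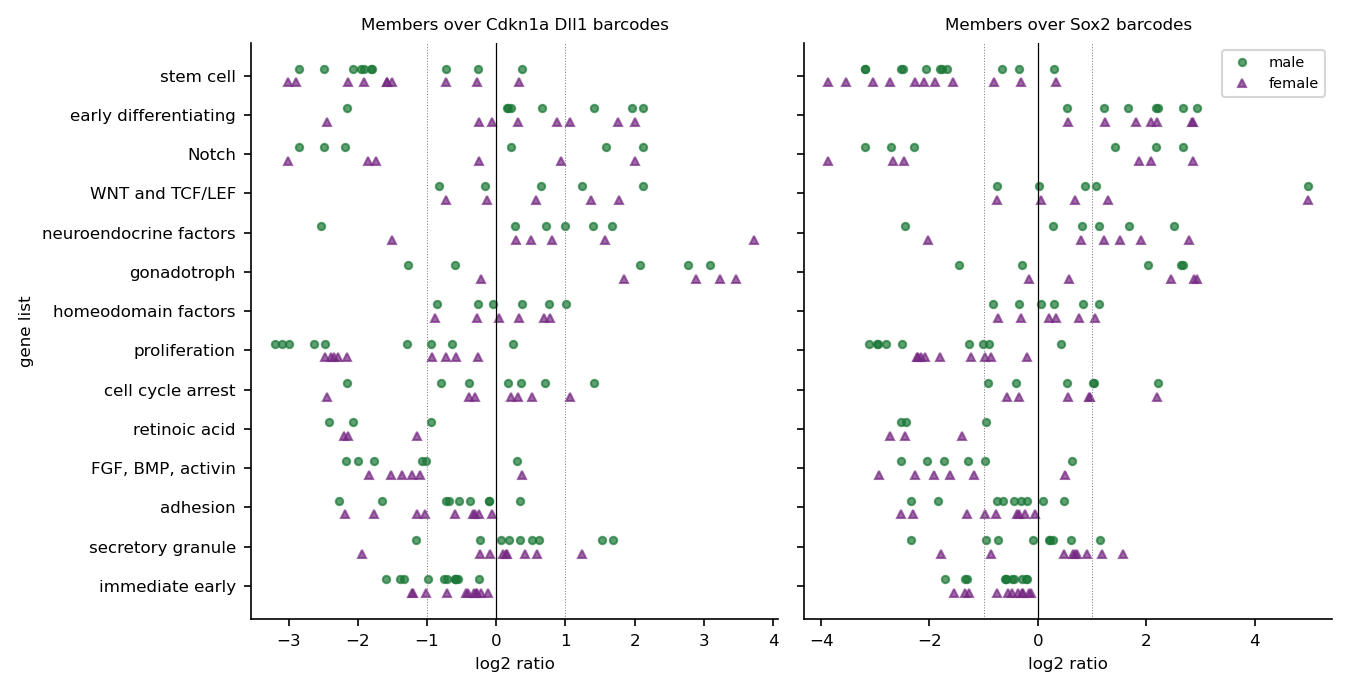
Log2 ratio of the *Smoc2* *Pou3f4* cells (members) to *Cdkn1a* *Dll1* barcodes (left) and *Sox2* barcodes (right) of every gene above the level limit in 14 gene lists, in the male (green circles) and female library (purple triangles). Dotted lines mark a 2-fold ratio, and the stem cell and proliferation lists have medians of -1.86 and -2.47 in the male library on the left.

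Of 9 adhesion genes compared, *Krt18* and *Vim* were lower than in each comparison set and none was higher. *Krt18*, an epithelial keratin, was at 129 and 144 CPM against 673 and 855 CPM in the *Sox2* barcodes, and *Vim*, the intermediate filament of mesenchymal and stem cells, at 94.1 and 83.4 CPM against 349 and 429 CPM. *Epcam*, an epithelial adhesion molecule, was at 1698 and 1687 CPM and stayed within 2-fold of both sets. *Sparc*, *Ahnak*, *Tagln2*, *Tm4sf1*, *Cyr61*, a target of YAP, *Ntng1*, *Mgll*, a lipase, *Mgp* and the hormone subunit gene *Gpha2* were among the genes furthest below 1 of the sets. *Sparc*, a matrix protein, was at 11.2 and 12.6 CPM against 147 and 121 CPM in the *Cdkn1a* *Dll1* barcodes.

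Of 11 immediate early genes compared, which cell dissociation can also induce, *Jun*, *Junb* and *Zfp36* were lower than in each set and the other 8 were within 2-fold in 1 or both libraries. *Jun*, an AP-1 factor, was at 736 and 939 CPM against 1821 and 2262 CPM in the *Sox2* barcodes. The part of dissociation in the results was not tested. Of 9 genes of secretory granules compared, *Scg3*, a granin, was higher than in the *Cdkn1a* *Dll1* barcodes, at 66.1 and 60.2 CPM against 17.1 and 22.6 CPM, *Cplx2*, a regulator of vesicle fusion, was higher than in the *Sox2* barcodes, and *Pcsk1n*, an inhibitor of the prohormone convertase PCSK1, was lower than in each set, at 38.7 and 14.1 CPM. Without barcodes rich in *Pomc*, *Gh* or *Prl*, *Pcsk1n* was at 14.2 and 13.1 CPM in the members and at 45.6 and 11 CPM in the *Cdkn1a* *Dll1* and 46.9 and 13.0 CPM in the *Sox2* barcodes, with the female members no longer lower than either. *Chga*, chromogranin A, was at 189 and 161 CPM against 62.6 and 106 CPM in the *Cdkn1a* *Dll1* and 201 and 114 CPM in the *Sox2* barcodes, not past the 2-fold limit in both libraries of either comparison. Once the hormone-rich barcodes were left out, it was at 175 and 158 CPM against 37.6 and 32.1 CPM and against 67.0 and 34.6 CPM, more than 2-fold higher in the members. It was found in 50.3% and 44.9% of the thinned members, against 9.48% and 10.6% of the thinned *Cdkn1a* *Dll1* and 13.1% and 7.01% of the thinned *Sox2* barcodes (unthinned, 76.2% and 64.0%, 17.5% and 13.9%, and 19.4% and 8.95%). *Dlk1*, a membrane protein of the DLK/NOTCH family, was at 462 and 605 CPM against 2315 and 2341 CPM in the *Sox2* barcodes. Below the level limit, *C1ql2*, a secreted C1q-like protein of synapses, was at 46.8 and 31.6 CPM against 3.65 and 1.39 CPM in the *Sox2* barcodes. *Nrxn3*, a neurexin under the limit in the female library, was at 51.7 and 44.0 CPM against 10.8 and 6.11 CPM.

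*Gh* and *Dcn* came first among the genes lower than in the *Cdkn1a* *Dll1* barcodes, ordered by the smaller difference of the 2 libraries. *Gh*, growth hormone, was at 50.1 and 114 CPM in the members and 860 and 8549 CPM in the *Cdkn1a* *Dll1* barcodes. Without barcodes that had at least 2000 CPM of *Pomc*, *Gh* or *Prl*, it was at 48.9 and 38.6 CPM in the members and 55.8 and 83.5 CPM in the *Cdkn1a* *Dll1* barcodes. *Dcn*, decorin of mesenchymal cells, was at 2.76 and 1.08 CPM against 80.0 and 65.8 CPM. With the collagen, *Cga*, *Shh* and *Pou1f1* limits also on the *Cdkn1a* *Dll1* barcodes, the log2 ratio of *Dcn* was 0.50 and 0.04 and that of *Gh* in the female library 0.38. *Pomc* was found in 50% and 18.1% of the thinned members (unthinned, 84.6% and 45.7%) and in 53.6% and 15.1% of the collagen-rich barcodes (unthinned, 74.7% and 21.1%), so its share at equal depth did not exceed that background by more than the intervals.

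The members were not uniform, and those with and without a *Foxl2* UMI were set against each other to see what varied with it. *Foxl2* split them into 205 male and 157 female members with a UMI and 140 and 165 without, at median depths of 14913 and 14066 against 13456 and 12599 UMIs. Of 2962 genes compared, 5 (0.169%) were at least 2-fold higher in the *Foxl2*-positive members and 2 (0.0675%) lower, and the 5 include *Foxl2* itself, which made the split, and *Cga*, a gene of the conditions. *Neurod1* was at 108 CPM (97.7, 119.9) and 173 CPM (157, 191) in the *Foxl2*-positive members and at 15.8 CPM (10.7, 22.4) and 12.8 CPM (8.54, 18.3) in the *Foxl2*-negative ones. At 5000 UMIs, 17.1% and 13.8% of the members with a *Foxl2* UMI also had a *Neurod1* UMI, against 7.23% and 7.26% of those without (unthinned, 21.5% and 20.4% against 6.43% and 6.06%). *Scg2*, a granin of secretory granules, was at 76.4 and 93.4 CPM against 34.6 and 35.2 CPM. Without the hormone-rich barcodes, its log2 ratio was 0.82 and 1.28, under the 2-fold limit in the male library. *Klf2*, a zinc-finger factor, and the histone gene *Hist1h2ap* were lower in the *Foxl2*-positive members, with log2 ratios of -1.54 and -2.06 for *Klf2* and -1.05 and -1.50 for *Hist1h2ap*. The log2 ratio of *Hist1h2ap* was -0.39 in the female library once the barcodes with the highest Scrublet scores, which mark possible doublets, were removed, -0.70 and -0.89 with equal weight for each barcode and -0.99 in the male library without hormone-rich barcodes, so it was then under the limit, while *Klf2* stayed past it. *Cga*, which is limited by the conditions, was at 302 and 264 CPM against 84.0 and 80.1 CPM. *Pomc* also counted as higher, at 4881 and 207 CPM against 222 and 41.8 CPM, but without hormone-rich barcodes it was at 157 and 49.4 CPM against 141 and 42.7 CPM. *Isl1* was at 542 and 445 CPM against 370.3 and 327 CPM, within 2-fold, as were *Lef1* and *Col16a1*.

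The values at the edges of the conditions are given once as a description. Barcodes with a *Pou3f4* UMI and exactly 1 *Smoc2* UMI, just outside, had 223 and 284 CPM of *Col16a1* and 177 and 143 CPM of *Lef1*, close to those with 2 *Smoc2* UMIs, at 240.5 and 295 CPM and 165 and 157 CPM. Barcodes without a *Smoc2* UMI had 33.2 and 53.1 CPM of *Col16a1* and 108 and 176 CPM of *Mki67*. Without a *Pou3f4* UMI, 621 male and 380 female barcodes with 2 or more *Smoc2* UMIs had 296 and 309.6 CPM of *Col16a1* and 73.1 and 48.8 CPM of *Foxl2*. The *Cga* limit cut along a range of *Foxl2* and *Neurod1*. Members with 1000 to under 2000 CPM of *Cga*, 27 male and 17 female, had 137 and 209 CPM of *Foxl2*, 314 and 439 CPM of *Neurod1* and 183 and 197 CPM of *Col16a1*. Barcodes removed for 2000 CPM of *Cga* or more, 59 and 28, had 241 and 238 CPM of *Foxl2*, 851 and 1012 CPM of *Neurod1* and 93.8 and 119 CPM of *Col16a1*. Barcodes removed for a *Shh* UMI, 52 and 45, had 142 and 131 CPM of *Foxl2* and 328 and 264 CPM of *Col16a1*. Each of these sets meets all other conditions.

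**Figure D5:**
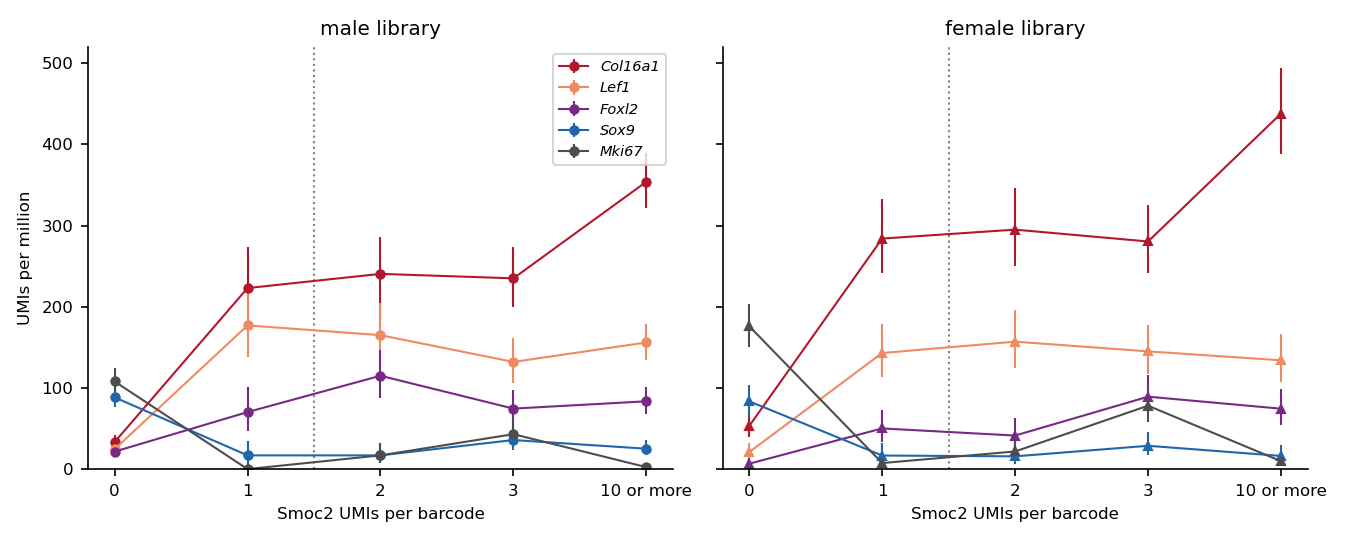
Levels of 5 genes (CPM) in barcodes that meet every other condition, by their number of *Smoc2* UMIs (0, 1, 2, 3, and 10 or more), in the male (left) and female library (right). Bars are exact Poisson 95% intervals and the dotted line is the limit of 2 UMIs; *Col16a1* was at 33.2 and 53.1 CPM without a *Smoc2* UMI and at 223 and 284 CPM with 1.

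Between the female and the male members, 6 of 3125 genes (0.192%) were at least 2-fold higher in the female and 9 (0.288%) in the male library. *Xist* was at 0.552 CPM for male and 893 CPM for female members, and its antisense gene *Tsix* at 0.184 and 75.6 CPM. The Y-linked *Eif2s3y* and *Ddx3y* were at 60.2 and 56.1 CPM in the male members, with no UMI in the female ones, which allows up to 0.650 CPM for each gene. *Pomc* was at 3197 CPM for male and 126 CPM for female members. Of the male *Pomc* UMIs, 1 member held 16397, and the median over male members was 2. Without the 2 male and 7 female hormone-rich members, *Pomc* was at 151 and 46.2 CPM. *Gstp1* was at 97.4 and 28.8 CPM and *Tubb3*, a neuronal tubulin, at 55.6 and 15.6 CPM. *Gstp1* was at 82.2 and 22.2 CPM in the *Cdkn1a* *Dll1* barcodes of the male and female libraries too, and at 86.8 and 27.0 CPM in the *Sox2* barcodes.

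CAGCTG, an E-box of the kind that bHLH factors bind, was searched for in the 250 upstream bases of all RefSeq promoters, as were CTTTGAA and CTTTGAT, cores of TCF/LEF sites, and ATGCAAAT, the octamer of POU factors, on both strands. These motifs were chosen after the levels were known. CAGCTG was in 21.7% of the 129 promoters of genes at least 2-fold above the *Sox2* barcodes. It was in 21.2% of the 85 promoters of genes above the *Cdkn1a* *Dll1* barcodes. Its share was 10.2% over the promoters of all genes compared with the *Sox2* barcodes and 13.0% over all 32851 promoters. In the same order, the TCF/LEF cores were in 6.98%, 7.06%, 5.24% and 7.48%, and the octamer in 2.33%, 1.18%, 0.960% and 1.60%. No share was taken over all genes compared with the *Cdkn1a* *Dll1* barcodes. Genes can have several promoters in the table, and those counted belonged to 87 and 59 genes. A match is a description of these letters only. The promoter of *Isl1*, at chr13:116309689-116309938 on the minus strand, holds 1 CAGCTG and is shown as it belongs to the factor with the highest level among the gonadotroph genes outside the conditions that were higher in the members.
Isl1: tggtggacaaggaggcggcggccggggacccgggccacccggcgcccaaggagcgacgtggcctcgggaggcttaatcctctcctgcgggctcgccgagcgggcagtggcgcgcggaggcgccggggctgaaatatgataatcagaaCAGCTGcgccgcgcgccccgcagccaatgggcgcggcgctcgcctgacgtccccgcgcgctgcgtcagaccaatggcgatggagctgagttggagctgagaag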

How the data were processed

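Single-cell RNA was measured in 1 library each of GFP-sorted cells from male and female Sox9iresGFP/+ pituitaries at P3. The deposited values are UMI counts per gene and barcode, which the authors made with Cell Ranger 3.0.2 (per the submitters' processing notes, which also name R 3.6.0 and Seurat 3 and 4). The sources name both v2 and v3 chemistry. The files held 31055 features, of which 71 shared a symbol with another, 106039887 male and 62897759 female UMIs, and no barcode under 500 UMIs. Reads of overlapping or antisense genes could not be told apart here.

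Barcodes with at least 1000 genes and at most 10% mitochondrial UMIs were kept. No doublet was removed, and Scrublet scores (scanpy 1.11.5, 0.8% of barcodes per 1000 marked) served as an alternative. The members, comparison sets and the 28 gene lists were chosen with earlier results of these data known. Levels are UMIs summed over barcodes, scaled to a total of 1000000 (CPM), with exact Poisson 95% intervals, and shares have exact Clopper-Pearson 95% intervals. UMIs were counted once per molecule, and intervals cover counting error only. A gene without a UMI was given an upper limit of 3 counts. Ratios had 5 CPM added to both levels. As there was 1 library per sex, no test was run. Named genes were those of the lists, and the 12 highest and 8 lowest by the smaller of the 2 ratios against each comparison set, 6 each way for *Foxl2* and 5 each way between the sexes. Thinning drew 5000 UMIs per barcode without replacement and left out 5 male and 1 female members below that depth. Gene positions were those of GENCODE on mm10, and promoters those of RefSeq on GRCm38.p6. The scripts were checked on simulated data (Python 3.11.15, numpy 2.4.6, scipy 1.17.1, pandas 2.3.3, matplotlib 3.10.9). Alternatives were other thresholds in the conditions, filters, scaling, weights, depths and sets of barcodes left out. Some genes of the lists are not reported here.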

Additional observations from a re-analysis of the deposited data

Results flagged for a closer look

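Genes of the lists whose ratio had opposite signs in the 2 libraries, with at least 50 CPM in 1 of the sets and intervals apart in both libraries, are given here as values. These differences were not tested. *Cga*, a gene of the conditions, had a log2 ratio of members to *Cdkn1a* *Dll1* barcodes of -1.27 (male) and 3.47 (female), and to *Sox2* barcodes of -1.45 and 0.58. Its level was 223 and 173 CPM in the members, 547 and 11.1 CPM in the *Cdkn1a* *Dll1* barcodes and 617 and 114 CPM in the *Sox2* barcodes. Barcodes with at least 2000 CPM of *Cga*, which the conditions keep out of the members, numbered 10 male and 0 female among the *Cdkn1a* *Dll1* barcodes and 304 and 30 among the *Sox2* barcodes. *Scg2*, a granin, had log2 ratios to *Sox2* barcodes of -0.74 and 0.9, with 61.3 and 64.7 CPM in the members and 106 and 32.4 CPM in the *Sox2* barcodes. Without hormone-rich barcodes its level was 51.5 and 65.7 CPM in the members and 53.0 and 17.4 CPM in the *Sox2* barcodes. *Ccnd2*, a cyclin of G1, had log2 ratios of 0.24 and -0.26 to the *Cdkn1a* *Dll1* and of 0.42 and -0.21 to the *Sox2* barcodes. *Cldn3*, a claudin of tight junctions, had log2 ratios of 0.1 and -0.24 to the *Sox2* barcodes.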

How the results depend on the processing

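With 1 library per sex, counting intervals hold no spread between animals, and shares of barcodes with a UMI depend on depth. No paired analysis was possible because each sex had 1 library and no result comes from a test. Of the values that answer a comparison, 107 stayed within 1.5 times, or within their interval, and 27 moved. A *Pou3f4* limit of 2 UMIs left 226 male members. The conditions applied at 5000 UMIs left 140 male and 141 female members, a *Foxl2* share of 37.9% in the male library, and 50 genes higher and 113 lower than in the *Cdkn1a* *Dll1* barcodes. Without a level limit, 196 genes were higher and 655 lower than in the *Cdkn1a* *Dll1* barcodes, 263 and 815 against the *Sox2* barcodes, 11 and 23 in female against male members, and 6 lower in *Foxl2*-positive members. At 100 CPM the counts were 42 and 101, 56 and 128, 3 and 3, and 1. With the highest Scrublet scores removed, or with equal weight for each barcode, 1 gene was lower in the *Foxl2*-positive members, and 83.3% of the genes counted in that split were then higher, against 71.4% as reported and 50% without a level limit. Thinning to 3000 UMIs gave *Foxl2* shares of 23.8% and 18.9%.

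With the member limits on the comparison sets, log2 ratios to the *Cdkn1a* *Dll1* barcodes turned to 0.38 for *Gh* in the female library and 0.50 and 0.04 for *Dcn*, and with the conditions at 5000 UMIs to 0.44 for *Gh* in the female library. The next alternatives were chosen after seeing the data. Without hormone-rich barcodes, 3 genes were higher and 1 lower in the *Foxl2*-positive members, and the log2 ratio of *Gh* in female to male members was -0.31. With proliferating barcodes left out of the comparison sets but kept among the members, 137 genes were lower than in the *Cdkn1a* *Dll1* barcodes. The log2 ratios then turned to 0.44 for *Gh* in the female library, 0.07 and 1.02 for *Hist1h3c* and 0.48 and 1.50 for *Pclaf*. Of the values of single genes, 1100 stayed, 230 moved and 10 turned in sign. The causes were not tested.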
